A study of Mus musculus with 23 samples.

Results

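The genes described here serve DNA replication and mitosis, and they were chosen by name. Of these, 20 were listed under replication, from origin licensing to nucleotide supply, and 25 under mitosis, and some also act in other phases. The rule uses no measured value, although the list was drawn up with earlier results of these data known. Each gene was read from 1 probe set, the probe set whose mean over the 23 arrays was highest, and 44 of the 45 genes could be measured among 18193 genes in all. Cyclin B1 (Ccnb1) had no probe set carrying its symbol alone and has no value. Within the list, an S-phase set of 13 genes (Mcm2 to Mcm7, Mcm10, Pcna, Ccne1, Ccne2, Tk1, Rrm1 and Rrm2) was set against a mitotic set of 10 genes (Cdc20, Cenpa, Cenpe, Cenpf, Kif11, Kif20a, Kif23, Kif2c, Aurka and Aurkb).

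The arrays measured total RNA of 8 LLC subclones (Lewis lung carcinoma, a mouse lung tumour line that grows as a transplant), numbered 2, 3, 6, 18, 19, 23, 24 and 28. Each subclone was grown out of the parental line by limiting dilution and is read here as a single clone, which was not checked. All were kept in DMEM with 10% FBS and antibiotics and then spent 24 hours in the serum-free FreeStyle medium before RNA was taken, which means that every value comes from cells without serum. There were 3 arrays per subclone and 2 for subclone 6. The labels name them biological replicates without saying whether they came from separate cultures, no parental sample was used, and p-values measure only the spread between these arrays.

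Cells copy their DNA in S phase and divide it in mitosis, and most genes of both phases are transcribed in waves. E2F factors drive the S-phase wave after the retinoblastoma proteins release them, whereas many mitotic genes are held down by the DREAM complex through CHR elements and switched on later by B-Myb and FoxM1. Cells that leave the cycle turn both waves down, so these genes are widely read as markers of proliferation in tumours. All levels below are log2(intensity + 16), an array brightness scale on which a difference of 1 is a doubling for bright genes and understates the change of dim ones. Levels of different genes are not comparable, since each probe set has its own brightness. RNA was taken from whole cultures, so fewer cycling cells and less RNA per cycling cell cannot be told apart in any value below.

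Because the 2 sets are known for different promoter elements, the promoters were searched for 3 motifs on both strands. RefSeq windows (build GRCm38.p6) of 250 bases before to 50 after the start were given for 37 of the 45 genes. An E2F motif (TTCGCGC or TTGGCGC) lay in the windows of 4 of 11 S-phase genes, namely Mcm3, Mcm5, Mcm6 and Mcm7, and of 0 of 8 mitotic genes, against 4.47% of the 27025 genes with a window. A CHR motif (TTTGAA or TTCGAA) lay in the windows of 7 of 8 mitotic genes, all but Cenpe, and of 2 of 11 S-phase genes, against 21.7% of those genes. A CCAAT box (CCAAT) was found in 7 of 8 mitotic and 9 of 11 S-phase genes, against 41.1%. Over the whole list, 17 of 21 mitosis genes had a CHR motif and 3 of 16 replication genes did. An E2F motif lay in the windows of 3 of the 21, namely Ccnb1, Cdk1 and Mki67, and of 6 of the 16. A CCAAT box was found in 18 of the 21 and 10 of the 16. Among the 14452 genes with a window that were measured on the arrays, the shares were 6.74% for E2F, 17.5% for CHR and 42.0% for CCAAT. The E2F letters can overlap each other on the 2 strands, and they can overlap a CCAAT box. A match is a string of letters and not a bound site. The stretches of 150 bases that end just before the start are shown for 2 S-phase genes with E2F letters, for 3 mitosis genes with CHR letters, and for Cdk1, which has both. They were chosen after the matches were seen. Capitals mark the matched motifs.
Mcm5 (chr8:75109359-75109508, plus strand): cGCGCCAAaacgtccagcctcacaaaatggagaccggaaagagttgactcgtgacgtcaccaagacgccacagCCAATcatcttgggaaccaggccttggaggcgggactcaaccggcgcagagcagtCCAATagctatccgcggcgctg
Mcm6 (chr1:128359706-128359855, minus strand): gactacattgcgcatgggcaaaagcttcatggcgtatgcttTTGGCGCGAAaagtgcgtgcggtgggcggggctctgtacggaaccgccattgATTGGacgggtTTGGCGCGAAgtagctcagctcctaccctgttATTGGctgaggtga
Cdc20 (chr4:118437344-118437493, minus strand): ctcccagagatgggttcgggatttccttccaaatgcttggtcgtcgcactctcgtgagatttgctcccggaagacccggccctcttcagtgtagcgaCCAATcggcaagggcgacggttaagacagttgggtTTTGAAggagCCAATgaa
Kif11 (chr19:37376232-37376381, plus strand): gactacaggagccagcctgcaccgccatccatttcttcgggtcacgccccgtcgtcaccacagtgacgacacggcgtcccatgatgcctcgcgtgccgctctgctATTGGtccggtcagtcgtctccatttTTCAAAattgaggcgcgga
Cdk1 (chr10:69352913-69353062, minus strand): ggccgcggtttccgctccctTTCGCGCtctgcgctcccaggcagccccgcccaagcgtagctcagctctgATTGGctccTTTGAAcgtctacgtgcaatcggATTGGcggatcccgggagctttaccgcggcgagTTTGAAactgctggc
Top2a (chr11:99024190-99024339, minus strand): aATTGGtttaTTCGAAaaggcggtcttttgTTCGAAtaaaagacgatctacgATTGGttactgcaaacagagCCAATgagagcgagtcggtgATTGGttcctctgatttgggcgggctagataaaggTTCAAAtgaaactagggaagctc
Mcm5 and Mcm6, both subunits of the replicative helicase, carry E2F letters and CCAAT boxes here and no CHR letters. Cdc20, Kif11 and Top2a carry CHR letters beside CCAAT boxes and no E2F letters, and Cdk1 carries all 3 motifs.

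Subclone 2 had the lowest level of most of these genes, and subclone 18 the highest of 23. The lowest of the 8 subclone means was that of subclone 2 for 36 of the 44 genes, including all 24 mitosis genes and 12 of 20 replication genes, where 8.41% of all genes both varied and were lowest there. Subclone 28 was lowest for 5 replication genes (Mcm5, Gins1, Gins2, Pcna and Ccne2). The 3 genes left were lowest elsewhere: Mcm6 in subclone 23, Ccne1 in subclone 19 and E2f1 in subclone 18. The highest mean lay in subclone 18 for those 23, in subclone 3 for 9 and in subclone 23 for 5, where 10.7%, 8.43% and 8.56% of all genes both varied and were highest. For some genes another probe set, with a mean of at least 7, was highest in a different subclone. Examples are Bub1, Tpx2, Top2a and Cenpa in 18, Kif11 in 3, Prc1 in 6 and Mcm4 in 23. All 44 genes passed limma's F-test over the 8 subclones at an adjusted p under 0.05, but so did 61.8% of all genes. A range of subclone means of at least 1 log2 unit was met by 24 of the 44, against 12.7% of all genes. It was met by 9 of the 10 mitotic genes and by 6 of the 13 S-phase genes. The median range was 1.22 for the mitotic set, 0.91 for the S-phase set and 0.49 over all genes. The map of subclone means over the 44 genes shows subclone 2 as the one column low almost throughout.

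**Figure D1:**
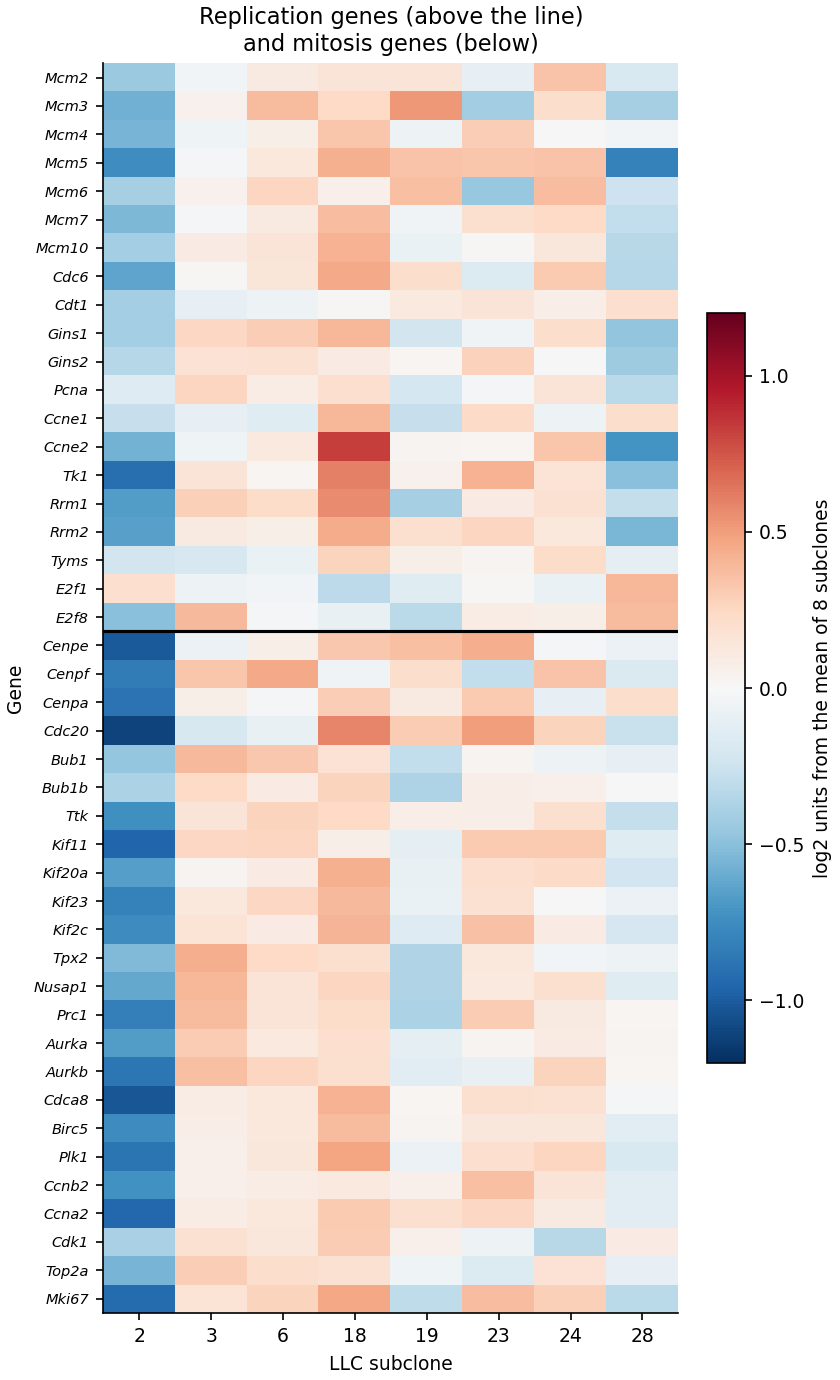
Mean log2(intensity + 16) of each gene in each subclone, as the difference from the mean of the 8 subclone means. Replication genes lie above the line and mitosis genes below. Subclone 2 is lowest for 36 of 44 genes, and subclone 28 is low for replication genes such as Mcm5 and Ccne2.

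Origin licensing and helicase genes were lower in subclone 2 than in the mean of the other 7 subclones for 11 of 11 members, by 0.39 to 0.85 log2 units. Among all genes 20.5% were lower there, and 31.6% of those with a mean level of at least 6. Mcm2 to Mcm7 form the ring-shaped helicase, Cdc6 and Cdt1 load it on origins, and Mcm10 and the GINS subunits Gins1 and Gins2 help to activate it. Mcm5 had the widest range in the helicase ring. On single arrays Mcm5 read 9.71, 9.62 and 9.84 in subclone 2 and 9.67, 9.59 and 9.70 in subclone 28. Mcm5 read 10.83, 10.95 and 10.91 in subclone 18, 10.84, 10.78 and 10.79 in subclone 19, 10.76, 10.82 and 10.81 in subclone 23, and 10.80, 10.83 and 10.81 in subclone 24. It read 10.42, 10.53 and 10.40 in subclone 3 and 10.62 and 10.56 in subclone 6. The Mcm5 values of subclones 2 and 28 overlapped and lay below every other array. The difference of subclone 2 from the other 7 was -0.85 ± 0.040 (SE, adjusted p = 1.15e-11), and that of subclone 28 from the other 6 without subclone 2 was -1.07 ± 0.040 (SE, adjusted p = 3.48e-13). Mcm6 was low in subclone 23 as well as in subclone 2. On single arrays Mcm6 read 11.22, 11.19 and 11.24 in subclone 2 and 11.14, 11.15 and 11.21 in subclone 23. Mcm6 read 11.34, 11.38 and 11.39 in subclone 28, 11.62, 11.66 and 11.75 in subclone 18, and 12.00, 11.96 and 11.95 in subclone 19. It read 11.72, 11.66 and 11.63 in subclone 3, 11.94 and 11.80 in subclone 6, and 11.96, 11.99 and 12.00 in subclone 24. Subclone 23 was the lowest here and lay just under subclone 2, with 1 array of 23 above the lowest of 2. A second Mcm6 probe set was lowest in subclone 2, so the probe sets disagree on which of these 2 subclones was lowest. Mcm3 was also low in subclone 23. On single arrays Mcm3 read 9.72, 9.59 and 9.75 in subclone 2, 9.86, 9.83 and 9.85 in subclone 23, and 9.81, 9.89 and 9.88 in subclone 28. Mcm3 read 10.44, 10.50 and 10.55 in subclone 18 and 10.80, 10.79 and 10.76 in subclone 19. It read 10.31, 10.30 and 10.33 in subclone 3, 10.71 and 10.56 in subclone 6, and 10.45, 10.51 and 10.45 in subclone 24. Subclones 2, 23 and 28 formed the low end of Mcm3 and subclone 19 the high end, with no overlap between those ends.

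The sliding clamp and cyclin E2 had their lowest means in subclone 28, and cyclin E1 did not. Pcna, the clamp that tethers DNA polymerase, had its lowest values in subclone 28. On single arrays Pcna read 12.18, 12.17 and 12.22 in subclone 28, 12.36, 12.30 and 12.43 in subclone 2, and 12.34, 12.24 and 12.33 in subclone 19. Pcna read 12.77, 12.80 and 12.74 in subclone 3, 12.62 and 12.60 in subclone 6, and 12.71, 12.70 and 12.73 in subclone 18. It read 12.45, 12.50 and 12.56 in subclone 23 and 12.65, 12.62 and 12.72 in subclone 24. All arrays of subclone 28 read below all others for Pcna, and subclones 2 and 19 came next and overlapped. Ccne2, a cyclin E that starts S phase with its kinase Cdk2, had a range of 1.54, the widest of the S-phase set. On single arrays Ccne2 read 8.42, 8.33 and 8.47 in subclone 2 and 8.24, 8.28 and 8.24 in subclone 28. Ccne2 read 9.72, 9.85 and 9.82 in subclone 18 and 9.28, 9.39 and 9.24 in subclone 24. It read 8.95, 8.82 and 8.99 in subclone 3, 9.13 and 9.05 in subclone 6, 9.17, 8.93 and 8.90 in subclone 19, and 9.08, 9.02 and 8.89 in subclone 23. Ccne2 was low in subclones 2 and 28, with all arrays of 28 below those of 2, and highest in subclone 18, with no overlap with any other subclone. It was lower in subclone 2 than in the other 7 with a difference of -0.64 ± 0.054 (SE, adjusted p = 2.03e-08). Against the other 6 it was lower in subclone 28, at -0.93 ± 0.054 (SE, adjusted p = 1.4e-10), and higher in subclone 18, at 0.87 ± 0.054 (SE, adjusted p = 1.88e-10). Its relative Ccne1 differed. Mean levels of Ccne1 were 8.42 ± 0.047 in subclone 28, 8.61 ± 0.11 in subclone 18 and 8.44 ± 0.21 in subclone 23 (SD, n = 3). They were 7.94 ± 0.1 in subclone 2 and 7.93 ± 0.062 in subclone 19 (SD, n = 3). Ccne1 was higher in subclone 28 than in the other 6 by 0.20 ± 0.067 (SE, adjusted p = 0.0226), the opposite direction to Ccne2 in the same cells.

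The genes of nucleotide supply were lowest in subclone 2 and highest in subclone 18 for 4 of 4 members. Of all genes 8.41% both varied and were lowest in subclone 2, and 10.7% both varied and were highest in 18. Tk1, which salvages thymidine for DNA synthesis, had the largest difference among replication genes in subclone 2 against the other 7. On single arrays Tk1 read 8.43, 8.36 and 8.66 in subclone 2 and 8.88, 8.86 and 8.92 in subclone 28. Tk1 read 9.90, 10.04 and 10.04 in subclone 18 and 9.78, 9.77 and 9.85 in subclone 23. It read 9.63, 9.45 and 9.55 in subclone 3, 9.41 and 9.40 in subclone 6, 9.54, 9.33 and 9.44 in subclone 19, and 9.54, 9.52 and 9.58 in subclone 24. The Tk1 arrays of subclone 2 lay below all others, those of 28 came next, and those of 18 lay above all others. The difference was -1.03 ± 0.053 (SE, adjusted p = 3.66e-11) for subclone 2 against the other 7 and -0.73 ± 0.054 (SE, adjusted p = 2.85e-09) for subclone 28 against the other 6. Rrm1 and Rrm2, the large and small subunits of ribonucleotide reductase, were lower in subclone 2 with a difference of -0.77 ± 0.049 (SE, adjusted p = 5.53e-10) and -0.75 ± 0.047 (SE, adjusted p = 3.87e-10). Rrm2 means were 10.18 in subclone 2 and 10.29 in subclone 28, against 10.91 to 11.28 in the other 6. Tyms, which makes thymidylate, was dim at a mean level of 5.93 and ranged over 0.49 only.

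Of the 2 E2F genes, E2f1 was higher and E2f8 lower in subclone 2. E2f1, an activator of S-phase genes, was the one member higher in subclone 2 than in the other 7, by 0.24 ± 0.065 (SE, adjusted p = 0.00796). On single arrays E2f1 read 7.80, 7.94 and 7.80 in subclone 2 and 8.15, 7.96 and 8.02 in subclone 28. E2f1 read 7.34, 7.40 and 7.26 in subclone 18, 7.50, 7.49 and 7.49 in subclone 19, and 7.45, 7.57 and 7.67 in subclone 24. It read 7.59, 7.64 and 7.52 in subclone 3, 7.78 and 7.44 in subclone 6, and 7.82, 7.56 and 7.57 in subclone 23. On this probe set the E2f1 arrays of subclone 28 were the highest and those of 18 the lowest, with no overlap. Among the 20 replication genes, subclone 18 was highest for 12 and subclone 28 lowest for 5. A second E2f1 probe set, at a mean level of 7.44, ranged over 0.31 and was highest in subclone 2 and lowest in 19. A dimmer one, at 5.48, was highest in subclone 2 and lowest in 24, so the probe sets disagree on this order. E2f8, an atypical E2F that represses E2F targets, was low in subclone 2 and high in subclones 3 and 28. On single arrays E2f8 read 9.26, 9.26 and 9.32 in subclone 2, 10.13, 10.14 and 10.21 in subclone 28, and 10.25, 10.10 and 10.17 in subclone 3. E2f8 read 9.70, 9.65 and 9.75 in subclone 18 and 9.50, 9.46 and 9.41 in subclone 19. It read 9.85 and 9.69 in subclone 6, 9.86, 9.89 and 9.87 in subclone 23, and 9.80, 9.91 and 9.84 in subclone 24. All arrays of subclone 2 lay below all others for E2f8, and those of 3 and 28 overlapped above all others. It was lower in subclone 2 than in the other 7 with a difference of -0.58 ± 0.038 (SE, adjusted p = 8.6e-10), and higher in subclone 28 than in the other 6 by 0.36 ± 0.038 (SE, adjusted p = 4.52e-07).

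**Figure D2:**
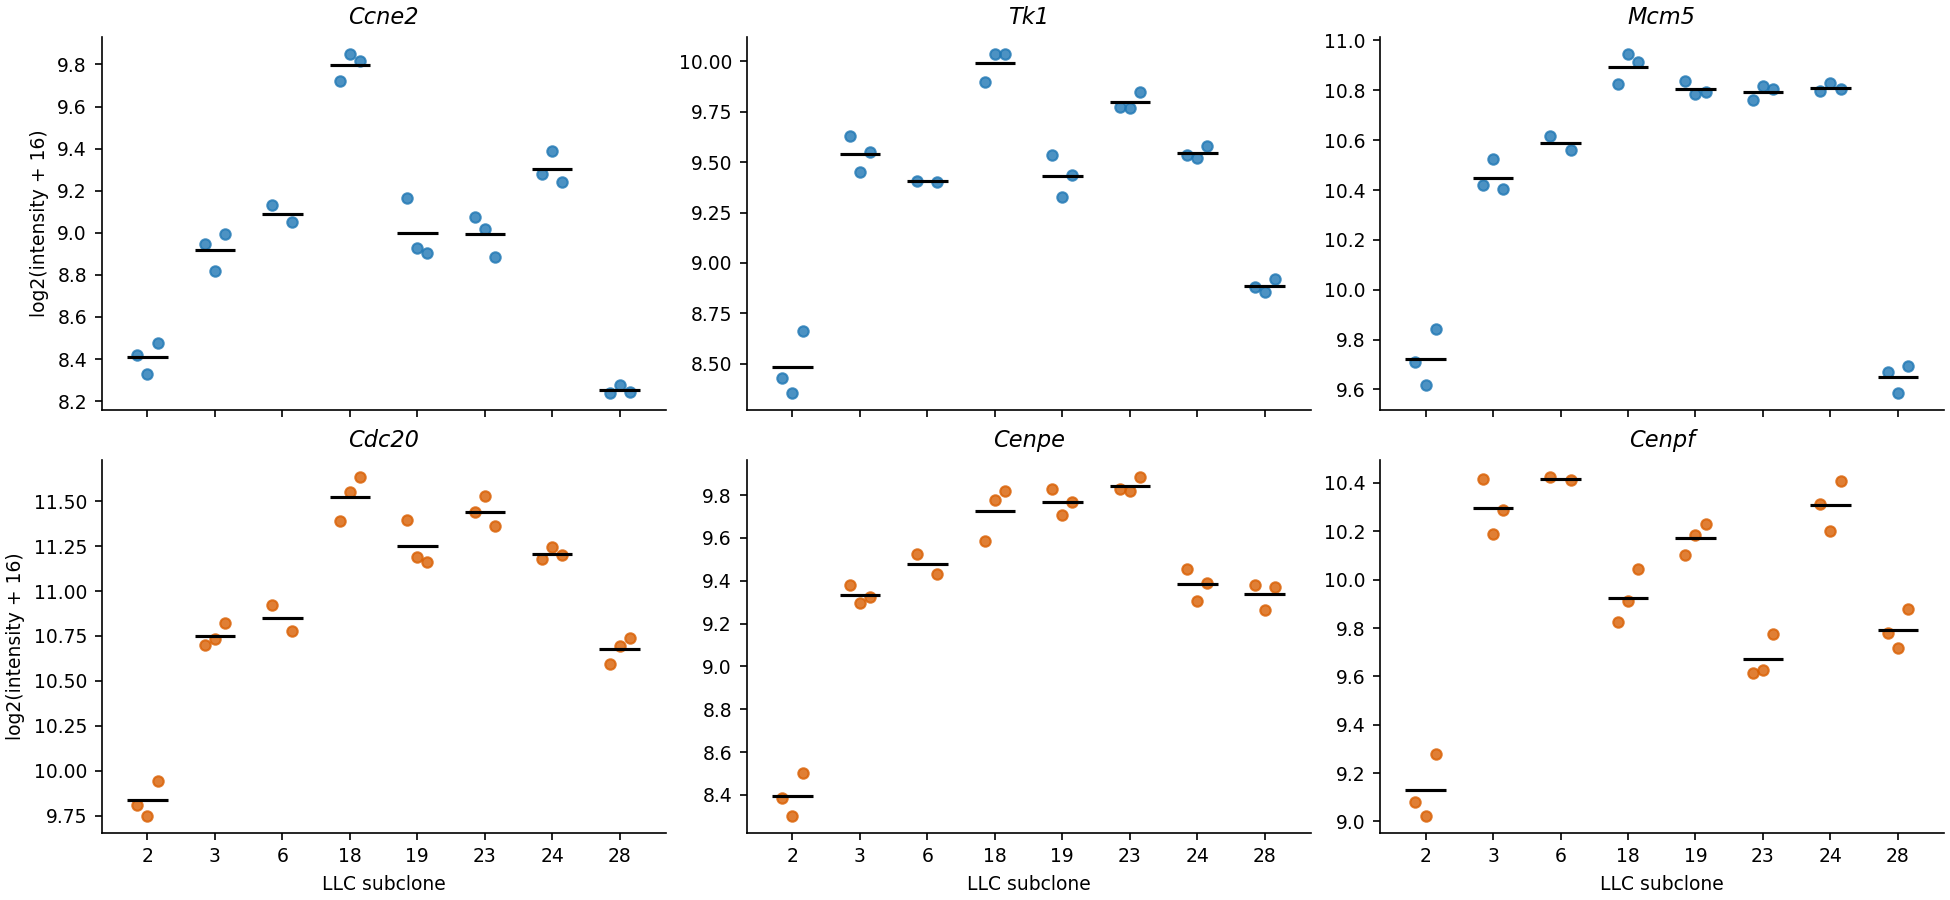
Level on each array, as log2(intensity + 16), of the 3 S-phase genes (top) and 3 mitotic genes (bottom) with the widest range over subclones. Points are arrays, bars are subclone means, and each vertical axis has its own scale and does not start at 0. Subclone 2 is at or near the bottom of all 6, while subclone 28 joins it for Ccne2 and Mcm5 and not for Cenpe.

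The centromere and kinetochore genes build the site where microtubules hold a chromosome. They were lower in subclone 2 than in the other 7 for 3 of 3 members, by 0.96 to 1.16 log2 units. The share of all genes lower there was 20.5%. Cenpe is a kinesin of the outer kinetochore that brings chromosomes to the spindle equator. On single arrays Cenpe read 8.39, 8.30 and 8.50 in subclone 2, 9.38, 9.26 and 9.37 in subclone 28, and 9.38, 9.29 and 9.33 in subclone 3. Cenpe read 9.59, 9.78 and 9.82 in subclone 18, 9.83, 9.71 and 9.77 in subclone 19, and 9.83, 9.82 and 9.89 in subclone 23. It read 9.52 and 9.43 in subclone 6 and 9.45, 9.31 and 9.39 in subclone 24. All Cenpe arrays of subclone 2 lay at 8.50 or below, and all arrays of the other subclones at 9.26 or above. The difference was -1.16 ± 0.049 (SE, adjusted p = 2.81e-12). Cenpf, a large protein of the kinetochore and nuclear matrix, ordered the other subclones differently. On single arrays Cenpf read 9.08, 9.02 and 9.28 in subclone 2 and 9.62, 9.63 and 9.77 in subclone 23. Cenpf read 9.78, 9.72 and 9.88 in subclone 28, 9.82, 9.91 and 10.04 in subclone 18, and 10.10, 10.18 and 10.23 in subclone 19. It read 10.42, 10.19 and 10.29 in subclone 3, 10.43 and 10.41 in subclone 6, and 10.31, 10.20 and 10.41 in subclone 24. Subclone 2 was again below all others, followed by subclones 23 and 28, while 3, 6 and 24 had the highest means. The difference of subclone 2 was -0.96 ± 0.060 (SE, adjusted p = 4.38e-10), and subclone 23 was lower than the other 6 with a difference of -0.48 ± 0.061 (SE, adjusted p = 3.4e-06). Cenpa, the histone H3 variant that marks centromeres, was lower in subclone 2 with a difference of -1.01 ± 0.049 (SE, adjusted p = 1.82e-11).

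The checkpoint and anaphase genes were lower in subclone 2 for 4 of 4 members, where 20.5% of all genes were lower. Cdc20, the activator of the anaphase-promoting complex, had the widest range of all 44 genes at 1.69. On single arrays Cdc20 read 9.81, 9.75 and 9.94 in subclone 2 and 10.59, 10.70 and 10.74 in subclone 28. Cdc20 read 11.39, 11.55 and 11.64 in subclone 18, 11.40, 11.19 and 11.16 in subclone 19, and 11.44, 11.53 and 11.36 in subclone 23. It read 10.70, 10.74 and 10.82 in subclone 3, 10.92 and 10.78 in subclone 6, and 11.18, 11.24 and 11.20 in subclone 24. Cdc20 in subclone 2 lay below all other arrays, subclones 3, 6 and 28 lay in between, and 18, 19, 23 and 24 lay above those. The difference of subclone 2 was -1.27 ± 0.057 (SE, adjusted p = 7.14e-12), and that of subclone 28 from the other 6 was -0.49 ± 0.058 (SE, adjusted p = 1.24e-06). The kinases that hold anaphase back had smaller differences. Bub1 and Bub1b were lower in subclone 2 with a difference of -0.53 ± 0.053 (SE, adjusted p = 2.05e-07) and -0.43 ± 0.037 (SE, adjusted p = 3.72e-08), and Ttk with a difference of -0.84 ± 0.050 (SE, adjusted p = 2.02e-10). Bub1b means were 8.85 in subclone 2 and 8.86 in subclone 19, a difference of -0.01 ± 0.049 (SE, adjusted p = 0.953).

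The spindle motors and microtubule proteins were lower in subclone 2 for 7 of 7 members, against 20.5% of all genes. Their differences were 0.61 to 1.09 log2 units. Kif11 is the kinesin that pushes spindle poles apart. On single arrays Kif11 read 8.66, 8.53 and 8.76 in subclone 2, 9.37, 9.46 and 9.54 in subclone 28, and 9.57, 9.50 and 9.39 in subclone 19. Kif11 read 9.89, 9.81 and 9.84 in subclone 3, 9.84 and 9.89 in subclone 6, and 9.66, 9.66 and 9.71 in subclone 18. It read 9.87, 9.94 and 9.95 in subclone 23 and 9.93, 9.89 and 9.94 in subclone 24. The Kif11 arrays of subclone 2 lay below all others, those of 28 and 19 came next and overlapped, and 23 and 24 were at the top beside 3 and 6. The difference was -1.09 ± 0.044 (SE, adjusted p = 1.46e-12). Kif23, a motor of the midzone and cytokinesis, and Kif2c, which takes microtubules apart at their ends, were lower with a difference of -0.93 ± 0.055 (SE, adjusted p = 2.01e-10) and -0.87 ± 0.048 (SE, adjusted p = 8.07e-11). Prc1, the bundler of the spindle midzone, was lower with a difference of -0.94 ± 0.044 (SE, adjusted p = 1.21e-11). A second Prc1 probe set, at a mean level of 9.04, gave -0.32 and was lowest in subclone 19.

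The kinases, passenger proteins and cyclins also had their lowest means in subclone 2. The kinases and passenger proteins are Aurora A (Aurka), Aurora B (Aurkb), Polo-like kinase 1 (Plk1), survivin (Birc5) and borealin (Cdca8). Of these 5 of 5 were lower in subclone 2, by 0.77 to 1.17 log2 units, against 20.5% of all genes. Cdca8 belongs with Aurkb and Birc5 to the complex that corrects faulty attachments. On single arrays Cdca8 read 8.58, 8.57 and 8.71 in subclone 2 and 9.58, 9.63 and 9.70 in subclone 28. Cdca8 read 9.99, 10.05 and 10.15 in subclone 18, 9.88, 9.89 and 9.76 in subclone 23, and 9.78, 9.87 and 9.83 in subclone 24. It read 9.70, 9.69 and 9.81 in subclone 3, 9.81 and 9.74 in subclone 6, and 9.78, 9.64 and 9.57 in subclone 19. Subclone 2 lay below all other Cdca8 arrays and subclone 18 above all others. The difference of subclone 2 was -1.17 ± 0.046 (SE, adjusted p = 1.22e-12). Ccna2 is the cyclin A of S phase and mitotic entry. On single arrays Ccna2 read 9.76, 9.78 and 9.98 in subclone 2 and 10.63, 10.61 and 10.71 in subclone 28. Ccna2 read 11.01, 11.18 and 11.09 in subclone 18, 11.02, 10.90 and 10.99 in subclone 19, and 11.03, 11.02 and 11.03 in subclone 23. It read 10.95, 10.89 and 10.77 in subclone 3, 10.95 and 10.86 in subclone 6, and 10.88, 10.89 and 10.89 in subclone 24. Its lowest arrays were those of subclone 2 and its next those of 28, neither overlapping the rest. The difference was -1.08 ± 0.046 (SE, adjusted p = 3.23e-12). Ccnb2, a B-type cyclin, and its kinase Cdk1 were lower with a difference of -0.84 ± 0.050 (SE, adjusted p = 2.23e-10) and -0.45 ± 0.043 (SE, adjusted p = 1.18e-07). Cdk1 means were 11.23 in subclone 2 and 11.29 in subclone 24, with overlapping arrays, and that difference was not called.

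Ki-67 (Mki67), the coat protein of mitotic chromosomes used as a marker of cycling cells, and Top2a, which untangles DNA, were both lower in subclone 2. On single arrays Mki67 read 9.63, 9.53 and 9.83 in subclone 2, 10.27, 10.23 and 10.29 in subclone 28, and 10.29, 10.27 and 10.30 in subclone 19. Mki67 read 11.02, 11.07 and 11.07 in subclone 18 and 10.93, 10.95 and 11.00 in subclone 23. It read 10.80, 10.78 and 10.67 in subclone 3, 10.86 and 10.85 in subclone 6, and 10.97, 10.78 and 10.87 in subclone 24. Mki67 fell into 3 steps without overlap, with subclone 2 lowest, subclones 19 and 28 together, and the other 5 above. The differences of subclone 2 were -1.06 ± 0.047 (SE, adjusted p = 5.61e-12) for Mki67 and -0.64 ± 0.050 (SE, adjusted p = 9.13e-09) for Top2a.

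Counted over the list, 43 of 44 genes were lower in subclone 2 than in the other 7 and 1 (E2f1) was higher, where 20.5% of all genes were lower and 15.4% higher. Bright genes were lower more often: 31.6% of the genes with a mean level of at least 6 were lower in subclone 2. The median difference was -0.64 over the S-phase set, -0.97 over the mitotic set and -0.01 over all genes. A difference of at least 1 log2 unit was reached by 9 of the 44, against 0.627% of all genes, and 8 of the 9 were mitosis genes. For 29 of the 44 genes every array of subclone 2 lay below every array of the other subclones, against 3.21% of all genes. These included 10 of 10 mitotic genes and 6 of 13 S-phase genes. With arrays scaled to a common 75th percentile 43 of the 44 were again lower, although the share of higher calls among all genes called in subclone 2 went from 42.8% to 59.0%. Of the 36 further probe sets for these genes with a mean of at least 7, which cover 27 genes, 35 were lower in subclone 2 and the exception was E2f1.

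The same was asked of each other subclone in turn, which shares subclone 2 between all 7 comparisons. The genes lower in subclone 2 numbered 41 against subclone 3 (17.0% of all genes lower), 41 against 6 (14.0%), 43 against 18 (23%), 39 against 19 (25.1%), 42 against 23 (21.6%) and 41 against 24 (17.6%). Against subclone 28 they numbered 35, where 19.2% of all genes were lower. A total of 30 genes were lower in all 7 comparisons, among them 10 of 10 mitotic genes and 6 of 13 S-phase genes, where 2.58% of all genes were lower in all 7.

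Subclones 2 and 28 had the lowest means of the S-phase set, and they were also set against each other. All 24 mitosis genes were lower in subclone 2 than in subclone 28, from -1.09 ± 0.065 (SE, adjusted p = 3.62e-10) for Cenpa to -0.37 ± 0.049 (SE, adjusted p = 9.66e-06) for Bub1b. Of the 13 S-phase genes 8 were lower, 4 did not pass and Pcna was higher at 0.17 ± 0.043 (SE, adjusted p = 0.00411), where 14.1% of all genes were higher. The median difference was -0.18 over the S-phase set and -0.77 over the mitotic set, and the ranges overlapped, from -0.53 to 0.17 and from -1.09 to -0.43. The difference between the sets was not tested. Values that did not pass were 0.07 ± 0.053 (SE, adjusted p = 0.354) for Mcm5, 0.16 ± 0.071 (SE, adjusted p = 0.109) for Ccne2, -0.07 ± 0.077 (SE, adjusted p = 0.583) for Mcm10 and -0.11 ± 0.061 (SE, adjusted p = 0.211) for Rrm2. Missing the threshold does not show that these levels were alike. The plot of subclone 2 against subclone 28 places replication genes toward 0 and mitosis genes to the left. Some replication genes lay among the mitosis genes, with -0.53 ± 0.048 (SE, adjusted p = 7.59e-08) for Mcm4, -0.49 ± 0.087 (SE, adjusted p = 0.000215) for Ccne1, -0.88 ± 0.050 (SE, adjusted p = 1.97e-10) for E2f8 and -0.61 ± 0.052 (SE, adjusted p = 4.24e-08) for the loader Cdt1.

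**Figure D3:**
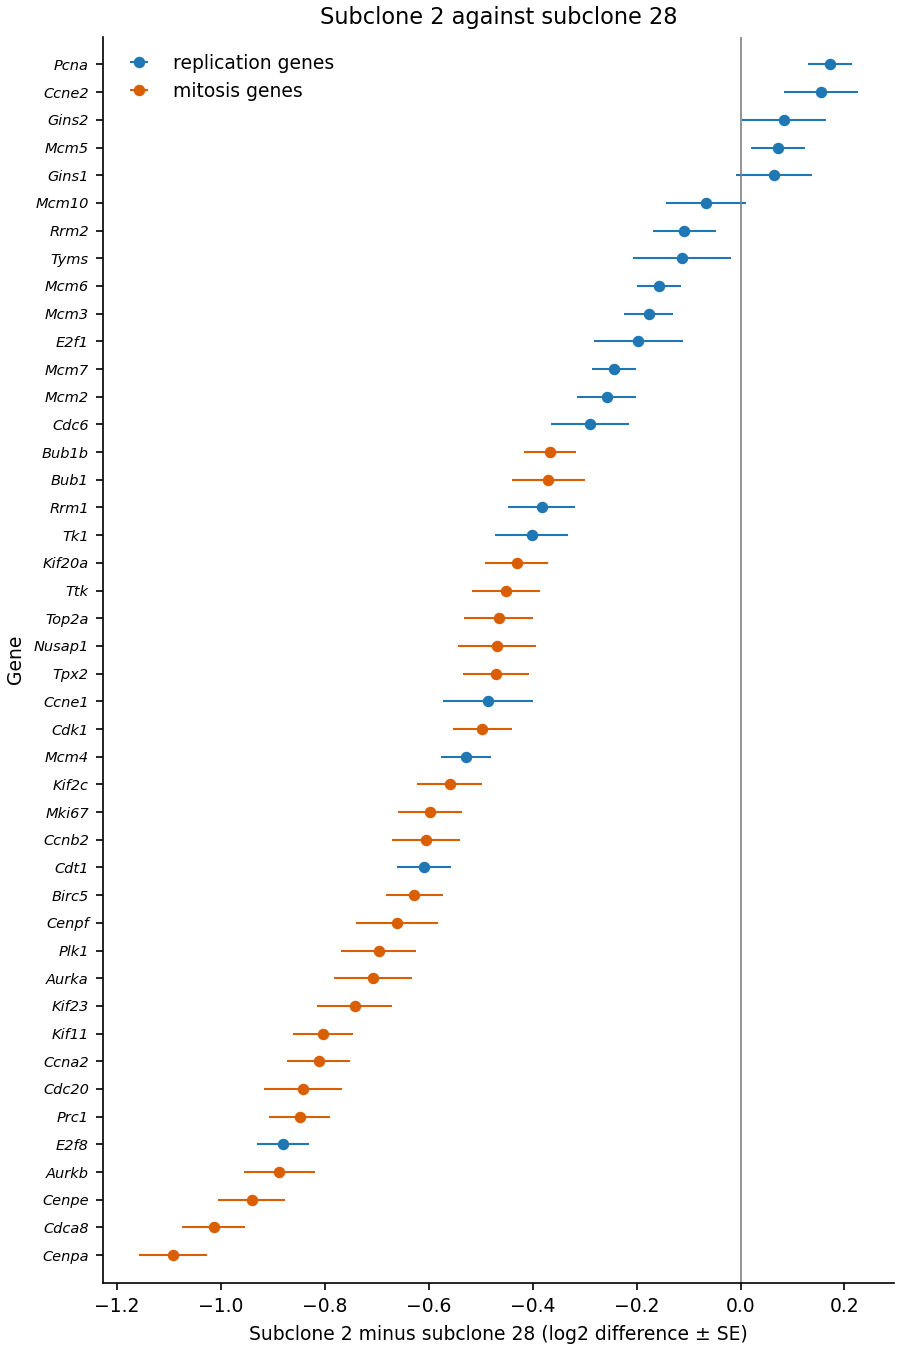
Difference in level between subclone 2 and subclone 28 for each of the 44 genes, in log2 units with 1 SE on either side, from limma. The mitosis genes lie between -1.09 and -0.37, and 5 replication genes lie above 0.

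Averaged within each array, the S-phase set stood above the mitotic set in subclone 2 and below it in subclone 28. Each gene was first centred on the mean of the 8 subclone means, so 0 is the average subclone, and no test was made because the sets were known from earlier results. The S-phase set averaged -0.53 in subclone 2 and the mitotic set -0.86, a difference of 0.33 ± 0.045 (SD, n = 3 arrays). In subclone 28 the sets averaged -0.34 and -0.09, a difference of -0.25 ± 0.018 (SD, n = 3). Every array of subclone 2 had a positive difference (0.28 to 0.37), and every array of subclone 28 a negative one (-0.28 to -0.24). In subclone 18 both sets were high, at 0.39 and 0.29, and the difference was 0.10 ± 0.018 (SD, n = 3). Subclone 23 had a difference of -0.13 ± 0.011 (SD, n = 3), with sets at 0.07 and 0.20. The other 4 subclones lay between -0.08 and 0.04. Over all 20 replication and 24 mitosis genes the difference was 0.01 in subclone 18, -0.10 in subclone 23 and -0.14 in subclone 28, so its size in 18 and 28 depended on which genes were averaged. With the mean of all probe sets of a gene it was -0.07 in subclone 23 and -0.01 in subclone 19, against 0.02 there with 1 probe set per gene.

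**Figure D4:**
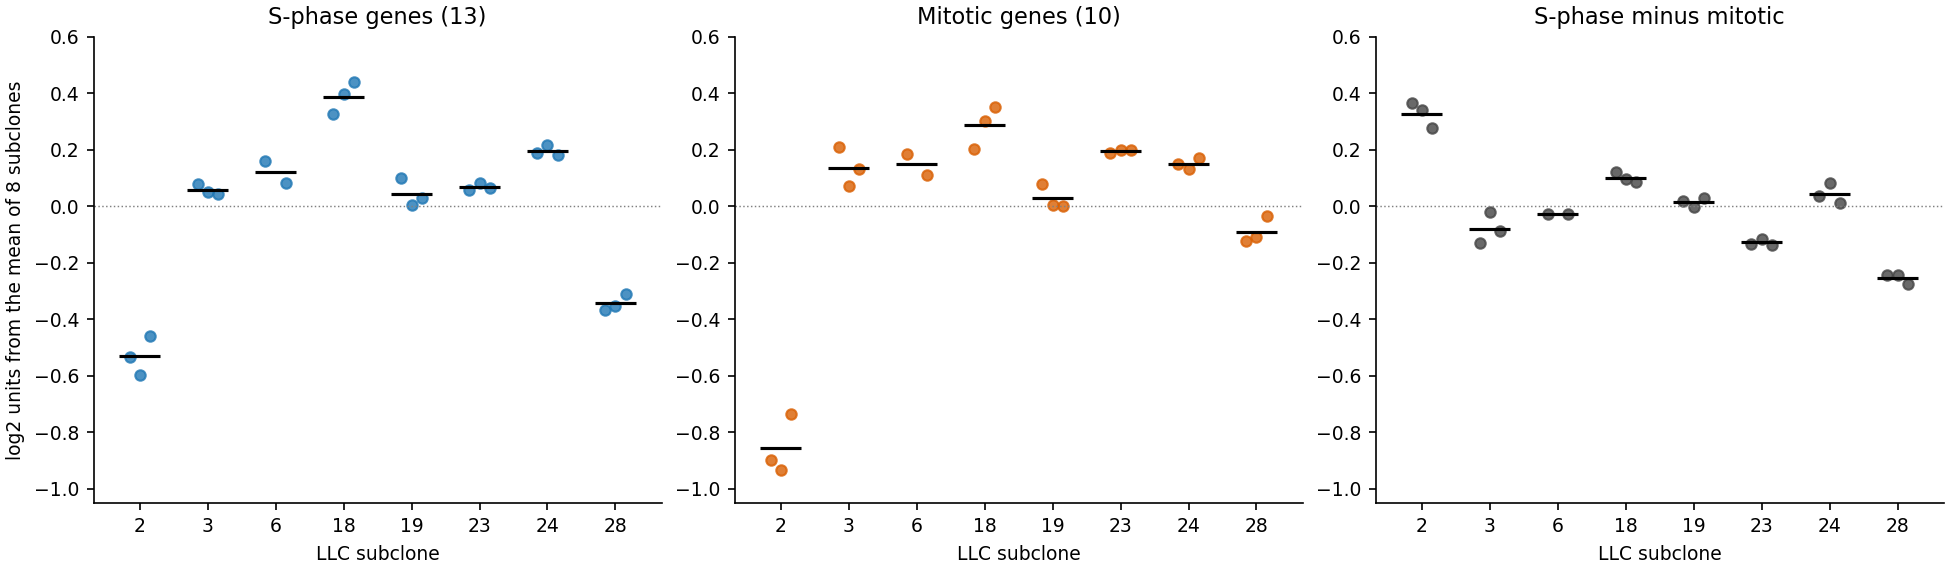
Mean of the 13 S-phase genes, mean of the 10 mitotic genes, and their difference on each array, in log2 units from the mean of the 8 subclone means. Points are arrays and bars are subclone means. Subclone 2 is lowest in both sets with the mitotic set lower still, and subclone 28 is lower in the S-phase set than in the mitotic set.

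A low subclone 2 lowers any mean it enters, so the other 7 subclones were compared with each other without it. Subclone 28 was lower for 33 of 44 genes and higher for 4, where 19.1% of all genes were lower and 19.4% higher. The 33 held 12 of 13 S-phase genes (median difference -0.45) and 7 of 10 mitotic genes (median -0.29). Higher were Ccne1, E2f1, E2f8 and Cdt1, the last at 0.17 ± 0.040 (SE, adjusted p = 0.00215). Among the mitosis genes Kif20a was lower with a difference of -0.38 ± 0.046 (SE, adjusted p = 1.66e-06) and Plk1 with a difference of -0.36 ± 0.056 (SE, adjusted p = 3.05e-05), and Cenpa gave 0.10 ± 0.050 (SE, adjusted p = 0.143).

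Subclone 18 was the high one. It was higher than the other 6 for 31 of 44 genes and lower for 3, where 20.5% of all genes were higher and 21.5% lower. The 31 held 11 of 13 S-phase genes, with a median of 0.38, and 6 of 10 mitotic genes, with a median of 0.20. Beside Ccne2, the largest differences were 0.56 ± 0.054 (SE, adjusted p = 8.42e-08) for Tk1, 0.55 ± 0.050 (SE, adjusted p = 3.28e-08) for Rrm1 and 0.50 ± 0.058 (SE, adjusted p = 9.61e-07) for Cdc20. The lower 3 were E2f1 at -0.33 ± 0.066 (SE, adjusted p = 0.00044), E2f8 at -0.18 ± 0.038 (SE, adjusted p = 0.000664) and Cenpf at -0.18 ± 0.061 (SE, adjusted p = 0.0201). For 13 of the 44 genes every array of subclone 18 lay above every other array, against 4.97% of all genes. Of those 13 genes 6 belonged to the S-phase set and 2 to the mitotic set.

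Subclone 19 was lower than the other 6 for 23 of 44 genes and higher for 5, where 17.4% of all genes were lower and 23.3% higher. The 23 included 15 of 24 mitosis genes and 7 of 7 spindle motor and microtubule genes. Prc1 gave -0.58 ± 0.045 (SE, adjusted p = 6.33e-09), Nusap1 -0.52 ± 0.058 (SE, adjusted p = 6.21e-07) and Tpx2 -0.51 ± 0.048 (SE, adjusted p = 9.41e-08). Rrm1 was lower with a difference of -0.58 ± 0.050 (SE, adjusted p = 2.3e-08) while Mcm3 was higher by 0.51 ± 0.036 (SE, adjusted p = 1.89e-09). Scaling to the 75th percentile moved the higher share of all genes called in subclone 19 from 57.8% to 46.2%.

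In the last 4 subclones fewer of the genes were called. Subclone 23 was higher for 18 genes and lower for 8 (19.5% and 17.4% of all genes), with Mcm3 at -0.58 ± 0.036 (SE, adjusted p = 3.96e-10) and Mcm6 at -0.59 ± 0.033 (SE, adjusted p = 9.63e-11) at its low end and Cdc20 at 0.40 ± 0.058 (SE, adjusted p = 1.75e-05) at its high end. Subclone 24 was higher for 16 and lower for 4 (14.4% and 17.1% of all genes), the lowest being Cdk1 at -0.45 ± 0.043 (SE, adjusted p = 1.5e-07). Subclone 3 was higher for 15 and lower for 8 (19.8% and 19.6%), with Tpx2 at 0.42 ± 0.048 (SE, adjusted p = 1.1e-06) and Cdc20 at -0.41 ± 0.058 (SE, adjusted p = 1.32e-05). Subclone 6, with 2 arrays, was higher for 8 and lower for 3 (14.0% and 11.6%), and without its replicate 1 the 8 became 4. Against all other 7 it was higher for 19 genes (13.8% of all genes), and for 8 without that array.

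Some differences between subclones had the direction of the other genes of the same chromosome, and some did not. For each subclone, the median difference from the other 7 was taken over the genes of each chromosome with a mean level of at least 6. In subclone 23 the 616 such genes of chromosome 1 had a median of -0.40, and the 3 members there, Mcm3, Mcm6 and Cenpf, had a median of -0.48. In subclone 28 the 587 genes of chromosome 8 had a median of -0.28, and the 3 members there, Mcm5, Cdt1 and Gins2, one of -0.49, although Cdt1 was higher there. In subclone 19 chromosome 1 was shifted by 0.29 and its 3 members by 0.41. In the same subclone chromosome 2 was shifted with a difference of -0.16 and its 9 members, among them Bub1, Tpx2, Nusap1 and Aurka, with a difference of -0.25, and chromosome 7 with a difference of -0.18 and its 6 members, among them Prc1, Mki67 and Rrm1, with a difference of -0.36. Cdk1, on chromosome 10, was lower in subclone 24, where that chromosome had a median of -0.27. In subclone 18 the direction was the opposite for Kif11 at 0.08 (adjusted p = 0.137), where chromosome 19 had a median of -0.31, and for Mcm2 at 0.18, where chromosome 6 had one of -0.17. Over the 7 subclones other than 2, chromosomes with a median beyond 0.1 in either direction gave 63 values of members, of which 50 had the sign of the chromosome. Of those 63 values 43 were called, 38 with that sign and 5 against it, and 33 of the 63 came from subclone 19. In subclone 2 the corresponding counts were 5 with the sign and 8 against it, all 13 called. Its chromosome 2 had a median of 0.15 while its 9 members had one of -0.47, and its chromosomes 1 and 7 had medians of 0.00 and 0.01 while the members there had -0.66 and -0.85. With members on chromosomes shifted by more than 0.1 left out, an alternative chosen after the data were seen, the S-phase minus mitotic difference was 0.27 in subclone 2 and -0.24 in subclone 28. In subclone 19 it was 0.15 with 3 S-phase and 5 mitotic genes left. The part of the chromosome-wide shifts in the differences of the members was not tested.

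**Figure D5:**
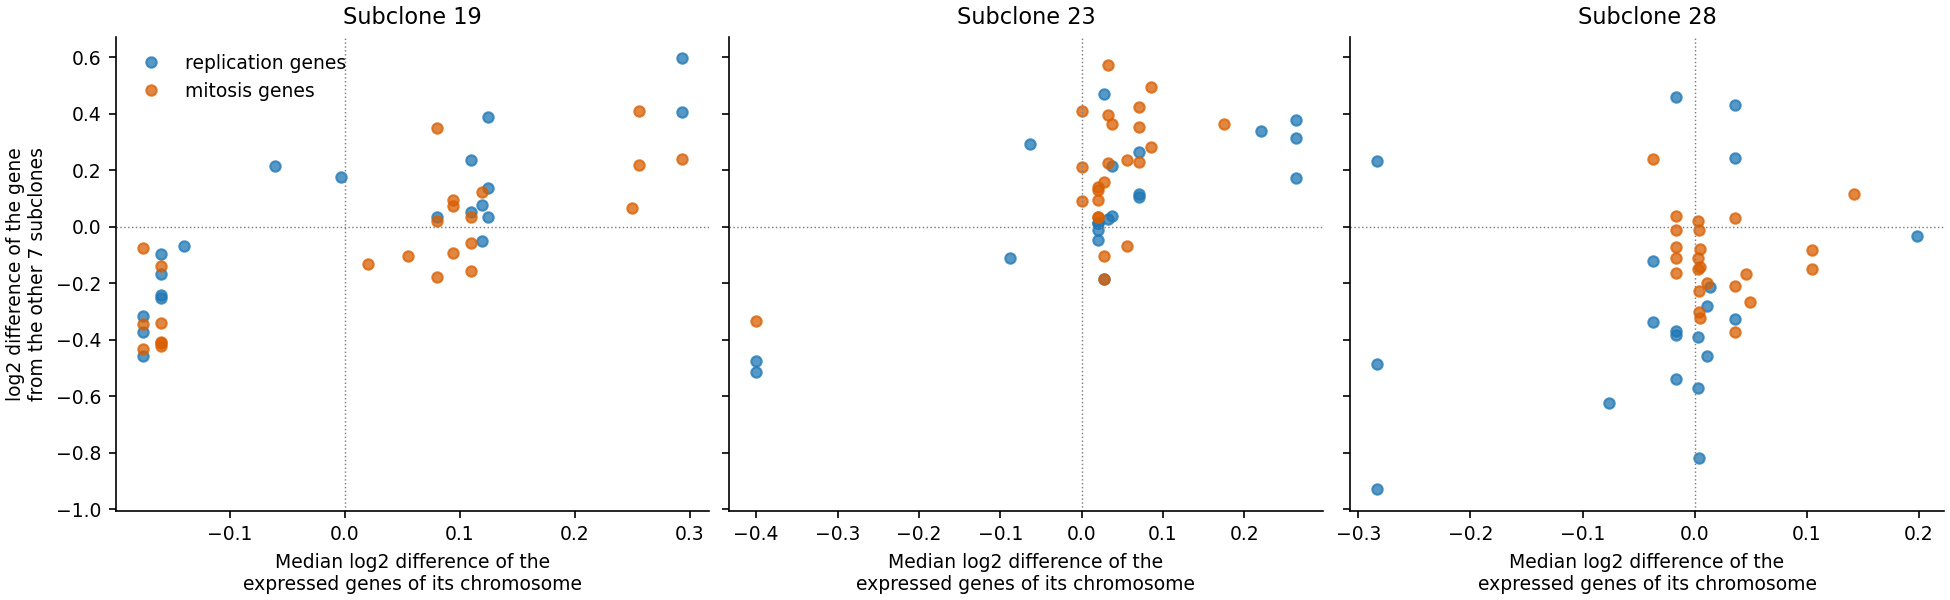
Difference of each gene from the other 7 subclones (vertical, log2 units) against the median difference of the genes of its chromosome with a mean level of at least 6 (horizontal, log2 units), in subclones 19, 23 and 28. Each point is 1 of the 44 genes. In subclone 23 the 3 genes of the most lowered chromosome lie at the bottom left, and in subclone 28 most replication genes are low on chromosomes with a median near 0.

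Other genes of the same processes were counted in lists that leave out the 45 genes above. Of 41 further licensing and replication fork genes 36 were lower in subclone 2 than in the other 7 and 1 was higher. For the kinetochore and checkpoint 30 of 32 measured genes were lower and 1 higher, for the spindle and cytokinesis 26 of 29 were lower, and for mitotic entry and exit 18 of 18. For condensin, cohesin and chromosome structure 15 of 17 were lower and 1 higher, for nucleotide and chromatin supply 8 of 12 lower and 2 higher, and for the E2F, RB and DREAM regulators 13 of 17 lower. The shares to read these against are the 20.5% of all genes lower there and the 31.6% of genes with a mean level of at least 6. Picking genes by range favours those in which subclone 2 stood apart, so the values that follow add nothing to the counts. The 3 genes with the widest range in each of these lists were all lower in subclone 2. They included the fork protein Timeless at -0.99 ± 0.048 (SE, adjusted p = 1.73e-11), the polymerase subunit Pold2 at -0.76 ± 0.030 (SE, adjusted p = 1.19e-12) and the cytokinesis regulator Racgap1 at -1.16 ± 0.046 (SE, adjusted p = 1.07e-12). E2f7, the relative of E2f8, had means between 6.32 (subclone 2) and 8.41 (subclone 18) and was lower in subclone 2 with a difference of -1.28 ± 0.080 (SE, adjusted p = 4.16e-10). The ubiquitin-conjugating enzyme Ube2c and separase (Espl1), which act at anaphase, were lower with a difference of -1.08 ± 0.048 (SE, adjusted p = 6.61e-12) and -1.10 ± 0.052 (SE, adjusted p = 1.18e-11). The genes that were higher, named after their values were seen, were Orc4, Zwint, Ncaph2, Dut and Shmt1, by 0.14 to 0.44 log2 units.

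In subclone 28, 31 of 41 licensing and fork genes, 27 of 32 kinetochore genes and 16 of 29 spindle genes were lower than in the other 6, against 19.1% of all genes, and the difference between lists was not tested. The histone chaperone Asf1b was lower with a difference of -0.92 ± 0.051 (SE, adjusted p = 7.43e-11) and the chromatin protein Hmgb2 with a difference of -0.82 ± 0.067 (SE, adjusted p = 1.26e-08), and both lie on chromosome 8, whose median was -0.28 in that subclone. Timeless and Espl1, at -0.04 ± 0.049 (SE, adjusted p = 0.643) and -0.10 ± 0.053 (SE, adjusted p = 0.176), did not pass there.

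Of 14 G1 genes (cyclins D, their kinases, CDK inhibitors and Myc) 5 were lower in subclone 2 and 2 higher. Over all genes 20.5% were lower and 15.4% higher, and 31.6% of those with a mean level of at least 6 were lower. The G1 genes had a median difference of -0.02, and none had a range of 1 log2 unit. Myc, the growth-promoting transcription factor, was lower in subclone 2 with a difference of -0.36 ± 0.044 (SE, adjusted p = 2.24e-06) and higher in subclone 28 by 0.27 ± 0.044 (SE, adjusted p = 6.57e-05). Cyclin D3 (Ccnd3) was higher in subclones 2 and 28, by 0.16 ± 0.033 (SE, adjusted p = 0.00107) against the other 7 and 0.47 ± 0.034 (SE, adjusted p = 2.34e-09) against the other 6. The CDK4 and CDK6 inhibitor Cdkn2d was lowest in subclone 18 and highest in subclone 28, at means of 8.99 and 9.90.

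Array medians lay between 40.8 and 45.7 intensity units and no pair of arrays was identical. The 3′ over 5′ log2 ratio of beta-actin, which rises as RNA degrades, averaged 0.56 in subclones 2 and 6 and 0.46 to 0.53 in the others, and its part in the differences was not tested. The label was checked by markers. The simple-epithelium keratin Krt18 read 10.82 to 11.97 in all subclones, and Krt8 read 10.32 to 11.29 in 7 and 5.70 in subclone 18. Of the other 5 simple-epithelium markers Epcam read 7.05 to 7.99 and Krt19 5.06 to 7.16, while Krt7, Cdh1 and Cldn4 read at most 5.45, near the floor of the scale, as the lung genes Nkx2-1 and Sftpc did at up to 5.57. The leukocyte gene Ptprc and the endothelial gene Pecam1 read at most 4.87. Other leukocyte genes varied widely, with ranges of subclone means of 2.80 for Cd68 and 2.27 for Lyz2. Cd68 was highest in subclone 28 and lowest in 18, and Lyz2 was highest in 19 and lowest in 3. The F-test, which 61.8% of all genes passed, was passed by 4 of 7 simple-epithelium genes and 1 of 6 lung genes. It was passed by 2 of 8 leukocyte genes (Cd68 and Lyz2), by 1 of 5 endothelial genes and by 5 of 6 stromal genes. The endothelial one, Tie1, was dim and had its lowest mean in subclone 2, at 4.34, and its highest in subclone 6, at 5.77. The stromal gene Dcn was highest in subclone 2, at 12.20, and lowest in subclone 19, at 8.60. Lum had the same extremes, with a range of subclone means of 2.29. Fabp4 went the other way, lowest in subclone 2 and highest in 28, with a range of 3.47. Pdgfra was highest in 28 and lowest in 18 (range 1.99), and Acta2 was highest in 24 and lowest in 19 (range 0.40). The part of these markers in the differences above was not tested.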

How the data were processed

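Total RNA of 8 LLC subclones was measured on 23 Affymetrix arrays. The deposited values are linear intensities, 1 per probe set and array, from 0.61 to 17068.52; per the labels, cRNA carrying biotin was prepared as the manufacturer describes, and how the probes were summarised and scaled is not given in the sources used here. Of 45101 probe sets, 64 were controls, 34945 carried 1 gene symbol, 932 carried several and 9160 were unlisted. Symbols were updated through RefSeq (GRCm38.p6) for 34741 probe sets, and the brightest probe set of each gene was kept, which gave 18193 genes.

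Values were taken as log2(intensity + 16) without further normalization, and limma 3.58.1 under R 4.3.3 fitted a linear model with 8 subclone means (15 residual degrees of freedom). Contrasts were drawn from that fit, and p-values were adjusted by Benjamini-Hochberg over all genes. A call is an adjusted p under 0.05. The number of arrays limits the precision.

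Members and lists were chosen with earlier results of these data known. Arrays are given one by one for the genes with the widest ranges: the top 3 of each set, the top of each role, and a few that differed from the rest, namely Mcm3, Mcm6, Pcna and E2f1, which were added after their values were seen. From the other lists, up to 3 genes with the widest range were named. Alternatives were pseudocounts of 1 and 64, quantile and 75th percentile scaling, a filter at a mean of 6, the mean of all probe sets, a trended prior, a replicate block and leaving out each array. The cell type markers of 5 lists were used to check the label.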

Additional observations from a re-analysis of the deposited data

How the results depend on the processing

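The counts of genes lower in subclone 2 changed little under the alternatives run. Against the other 7 they stayed between 42 and 43, and against single subclones between 30 (subclone 28, with the mean of all probe sets) and 43 (subclone 18). The lone count of calls that moved by more than 1.5 times was that of subclone 6, which has 2 arrays. Against the other 7 it was higher for 19 genes, for 12 with the mean of all probe sets and for 8 to 25 with 1 array left out. Against the other 6 it was higher for 8 genes, for 13 with a trended robust prior and for 4 to 10 with 1 array left out. The cause was not tested.

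The S-phase minus mitotic difference kept its sign in every subclone except 19 under all alternatives run, but not its size. In subclone 6 it came as near 0 as -0.007. With the mean of all probe sets it was 0.235 in subclone 2, -0.074 in 23 and -0.203 in 28, and it changed sign in subclone 19, to -0.012 from 0.015. With all 20 replication and 24 mitosis genes it was -0.064 in subclone 6, 0.008 in 18, 0.075 in 19, -0.104 in 23 and -0.143 in 28. With the median over genes it was 0.075 in subclone 18, 0.087 in 19, -0.156 in 23 and -0.207 in 28. With genes on shifted chromosomes left out it was 0.272 in subclone 2 and 0.152 in 19. That left 11 S-phase and 7 mitotic genes in subclone 2 and 3 and 5 in subclone 19. Why the difference changed was not tested. With 1 array left out the difference ranged from 0.311 to 0.349 in subclone 2 and from -0.259 to -0.245 in 28. Among single genes, Cenpf, Ccna2 and Kif11 in subclone 28 against the other 7 no longer passed without its replicate 1, at -0.193, -0.138 and -0.127, nor did Cenpf and Ccna2 without its replicate 2.

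Replicate numbers did not pair the arrays: same-numbered arrays of different subclones correlated at -0.003 on average (-0.278 to 0.187, 77 pairs), and 5 of 23 arrays correlated best with their own number. With the number as a replicate block 43 genes were lower in subclone 2, the S-phase minus mitotic difference there was 0.328, and the count for subclone 6 against the other 6 was 11.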
